A study of Mus musculus with 12 samples.

Results

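Sterol and fatty acid synthesis genes were followed by RNA-seq in the RAW264.7 line of mouse macrophages. The 34 genes were chosen by name from the steps of the pathways, and their Ensembl identifiers were looked up by symbol in the gene count table. All 34 were found among the 32688 genes of the table, and all passed the filter on low counts that kept 18066 genes for testing. They comprised 7 genes of the mevalonate steps, 11 genes of the squalene and sterol steps, 6 regulators or transport proteins of the pathway and 10 fatty acid genes. Null cells carry no deletion of the transcription factors TFEB and TFE3, whereas TFEB/TFE3 DKO (double knockout) cells had both genes targeted with CRISPR. Each line was grown in DMEM with high glucose and fetal bovine serum, either as control (untreated according to the labels, DMSO according to the methods) or with 100 µM etoposide for 8 h, with 3 libraries in each of the 4 groups. Etoposide is a topoisomerase II poison that leaves breaks in DNA. Each genotype is 1 line, so replicates measure the spread between cultures or libraries of that line.

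Cholesterol is built from acetyl-CoA through mevalonate, isoprenoid units, squalene and lanosterol, and fatty acids are built from malonyl-CoA, then elongated and desaturated. SREBP-2 and SREBP-1, encoded by Srebf2 and Srebf1, are membrane-bound transcription factors of the endoplasmic reticulum that activate these genes. SCAP escorts them to the Golgi for cleavage when sterols are low, and the INSIG proteins hold SCAP back when sterols are high. Macrophages use the pathway for membranes and for lipid signalling, and TFEB and TFE3, which bind E-boxes of the CACGTG type, are known as regulators of lysosomes and lipid catabolism.

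Total counts ran from 29837255 to 61809316 per library. Among control cells Tfeb averaged 16.8 ± 0.286 CPM in the Null line against 4.40 ± 1.12 CPM in the DKO line, and Tfe3 averaged 104.5 ± 14.8 against 37.8 ± 5.71 CPM (CPM are counts relative to the TMM-scaled library size, SD, n = 3), so both transcripts were lower but not absent in DKO cells. After etoposide Tfeb averaged 7.56 ± 0.427 CPM in Null and 4.34 ± 0.0894 CPM in DKO libraries, and Tfe3 101.3 ± 2.02 and 37.7 ± 3.2 CPM (SD, n = 3). Tfeb thus fell with the drug in Null cells (-1.15, limma-trend, adjusted p 8.99e-05). The titles of the DKO etoposide libraries carry the word MEFs, although the other labels say RAW264.7. The same titles name TFEB/TFE3 but leave out the word DKO. In these libraries 8 macrophage markers summed to 4585 to 4775 CPM and 8 fibroblast markers to 1.01 to 1.20 CPM. In the other groups the macrophage markers summed to 4193 to 5132 CPM and the fibroblast markers to 0.152 to 2.04 CPM. Col1a1, Col1a2, Col3a1, Dcn, Lum and Thy1 were each at or under 0.115 CPM in the DKO etoposide libraries. Of the other 2 markers Pdgfrb rose in DKO cells, from a mean of 0.198 ± 0.0458 CPM to 0.847 ± 0.101 CPM (SD, n = 3, 1.83, limma-trend, adjusted p 1.73e-05), and Pdgfra was at 0 in the DKO control libraries and at 0.0525 to 0.145 CPM after etoposide. In treated Null libraries, whose titles do not carry the word MEFs, Pdgfrb was at 1.30 to 1.38 CPM and Pdgfra at 0.341 to 0.471 CPM. Single macrophage markers moved with the groups, such as Fcgr1, whose mean was 69.5 ± 4.18 CPM for Null control against 5.13 ± 0.364 CPM for DKO etoposide (SD, n = 3). The means of Csf1r (1751.3 and 849.5 CPM), Ptprc (315.0 and 242.8 CPM) and Lyz2 (1683.9 and 1641.1 CPM) were in the same order. Between the same groups the means of Cd68 (656.3 and 1074.3 CPM), Spi1 (220.6 and 375.4 CPM), Itgam (224.3 and 342.5 CPM) and Adgre1 (101.6 and 127.8 CPM) were in the other order. The part of these markers in the results below was not tested. A level in such bulk RNA is a share of the library, so that fewer transcripts per cell and fewer cells holding a transcript cannot be told apart.

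Promoter sequence, from 250 bases before to 50 bases after a RefSeq start site (GRCm38.p6), was found for 27 of the 34 genes. It was not found for Fdps, Fdft1, Sqle, Stard4, Scd1, Scd2 and Fads1. The windows were searched on both strands for CCAAT (the NF-Y box, bound by a partner of SREBP), for the sterol regulatory element core TCACNCCAC, for the E-box CACGTG, for its longer CLEAR form TCACGTGA, which contains the E-box, and for the GC box GGGCGG. The NF-Y box was present for 22 of the 27 genes (81.5%), against 42.6% of 10808 tested genes with such a window. The GC box was also present for 22 (81.5%), against 64.9%. The E-box was found for 6 genes (22.2%, against 11.4%), namely Hsd17b7, Sc5d, Dhcr7, Scap, Insig1 and Elovl5. The sterol regulatory element core was found for Hmgcs1 (3.70%, against 1.46%), and the CLEAR form for none (against 2.03%). Over all 32851 promoter windows the shares were 37.4% for the NF-Y box, 35.7% for the GC box, 7.15% for the E-box, 1.24% for the sterol regulatory element core and 0.974% for the CLEAR form.

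The 250 bases before the start site are printed for 6 genes that stand for different outcomes below. Hmgcs1, Cyp51 and Lss fell with etoposide in Null cells, Insig1 was not called in any comparison and Scap rose in both lines. Elovl6 also fell in Null cells and had the largest difference in response between the lines. Of the genes with a window, CCAAT was found for 11 of the 14 that fell in Null cells and for 11 of the 12 not called. It was absent from the 1 that rose. The 7 genes without a window all fell in Null cells. A link between the box and the response was not tested. Capitals mark CCAAT (read as ATTGG on the other strand), TCACNCCAC and CACGTG. Hmgcs1 held 3 CCAAT boxes and the sterol regulatory element core in this stretch, Cyp51 and Lss 1 CCAAT box each, Insig1 1 CCAAT box and 1 E-box, Scap 1 E-box, and Elovl6 none of these letters.
Hmgcs1, chr13:119690101-119690350, plus strand: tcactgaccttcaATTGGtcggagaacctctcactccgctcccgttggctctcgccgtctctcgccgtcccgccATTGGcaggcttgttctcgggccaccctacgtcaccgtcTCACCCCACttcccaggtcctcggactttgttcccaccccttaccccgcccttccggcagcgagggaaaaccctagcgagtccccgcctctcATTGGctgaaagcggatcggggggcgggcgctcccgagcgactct
Cyp51, chr5:4104698-4104947, minus strand: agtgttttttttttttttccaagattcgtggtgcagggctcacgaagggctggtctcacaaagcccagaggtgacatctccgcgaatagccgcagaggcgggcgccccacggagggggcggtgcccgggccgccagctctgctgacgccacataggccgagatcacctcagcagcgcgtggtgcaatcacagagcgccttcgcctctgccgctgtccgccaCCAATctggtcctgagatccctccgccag
Lss, chr10:76531355-76531604, plus strand: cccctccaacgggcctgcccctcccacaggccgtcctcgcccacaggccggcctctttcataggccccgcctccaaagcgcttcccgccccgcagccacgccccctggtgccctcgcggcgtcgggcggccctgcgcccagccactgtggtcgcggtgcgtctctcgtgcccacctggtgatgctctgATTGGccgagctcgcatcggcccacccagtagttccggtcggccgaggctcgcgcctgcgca
Insig1, chr5:28071162-28071411, plus strand: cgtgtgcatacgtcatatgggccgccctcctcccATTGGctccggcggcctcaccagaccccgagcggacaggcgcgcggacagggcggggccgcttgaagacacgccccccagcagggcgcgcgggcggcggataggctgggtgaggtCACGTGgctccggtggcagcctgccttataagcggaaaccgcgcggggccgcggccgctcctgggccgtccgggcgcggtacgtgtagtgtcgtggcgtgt
Scap, chr9:110333106-110333355, plus strand: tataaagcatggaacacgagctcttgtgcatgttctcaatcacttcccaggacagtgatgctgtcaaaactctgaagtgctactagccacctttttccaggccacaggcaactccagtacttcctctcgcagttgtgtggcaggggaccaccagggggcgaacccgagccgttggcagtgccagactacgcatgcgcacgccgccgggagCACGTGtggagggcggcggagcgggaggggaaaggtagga
Elovl6, chr3:129532136-129532385, plus strand: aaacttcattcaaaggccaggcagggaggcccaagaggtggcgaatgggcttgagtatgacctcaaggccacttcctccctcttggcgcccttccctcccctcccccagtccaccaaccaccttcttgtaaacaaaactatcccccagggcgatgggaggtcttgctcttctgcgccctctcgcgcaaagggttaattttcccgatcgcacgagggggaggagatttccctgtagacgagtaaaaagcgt

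Transcript levels were first ordered in Null control cells, as mean CPM per kb of exon. Scd2, a stearoyl-CoA desaturase, stood highest at 103 ± 7.32 CPM per kb. It was followed by Fads1 at 62.3 ± 3.60, a fatty acid desaturase, and Fads2 at 43.0 ± 6.27, a second desaturase of polyunsaturated fatty acids (SD, n = 3). Fasn (fatty acid synthase, 37.5 ± 0.897 CPM per kb) and Acly (ATP citrate lyase, 36.8 ± 3.18 CPM per kb) came next and did not differ from each other or from Fads2 beyond their spread. The highest gene of the sterol branch was Fdps, farnesyl diphosphate synthase, at 22.3 ± 2.41 CPM per kb, but up to 50.7% of its counts could come from the overlapping gene Gm43738, and Sqle followed at 13.3 ± 1.42 CPM per kb. The lowest were Insig2 at 1.87 ± 0.267 and Tm7sf2, a sterol C14-reductase, at 1.43 ± 0.182 CPM per kb. Of the paralogs on chromosome 19, Scd1 and Scd2, separated by 87.6 kb and on opposite strands, were at 6.67 ± 0.243 and 103 ± 7.32 CPM per kb. Fads2 and Fads1, separated by 81.1 kb, were less far apart. Tm7sf2 also lies on this chromosome, which held 5 of the 34 genes.

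**Figure D1:**
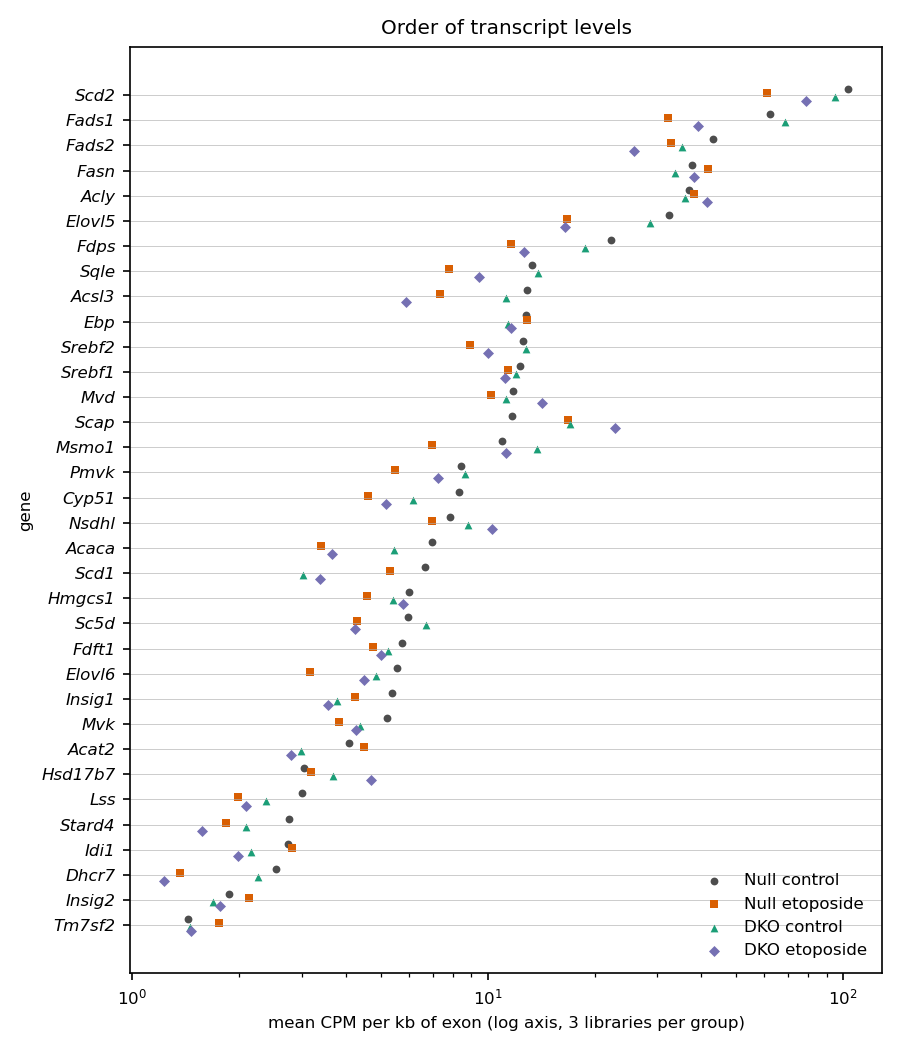
Mean CPM per kb of exon (log axis) of the 34 genes in each group of 3 libraries, ordered by Null control cells. Scd2 stood highest at 103 CPM per kb and Tm7sf2 lowest at 1.43 CPM per kb in Null control cells.

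Etoposide lowered most of these genes in Null cells. Of the 34 genes 21 fell (61.8%) and 1 rose (2.94%), with a median log2 difference of -0.41. Over all genes tested 18.7% fell and 20.9% rose, with a median of 0.03 (limma-trend with Benjamini-Hochberg adjustment over all genes tested). Of the fatty acid genes 8 of 10 fell (median -0.77), of the squalene and sterol steps 7 of 11 (median -0.48), of the mevalonate steps 4 of 7 (median -0.38) and of the regulators and transport proteins 2 of 6, while 1 of these rose (median -0.21). Together the 34 genes took 2758 to 2838 CPM in Null control libraries and 2075 to 2162 CPM after etoposide. The share of counts from mitochondrially encoded genes differed between the Null groups, lying between 14.1% and 18.3% in control libraries and between 19.4% and 21.7% after etoposide, whereas it was 16.6% to 17.5% and 17% to 18.1% in the DKO groups. Of the 8 macrophage markers 4 fell and 1 rose in Null cells. Csf1r, the receptor for macrophage colony-stimulating factor, fell by 1.19 on the log2 scale (limma-trend, adjusted p 4.34e-07) and had an interaction of 0.59 (adjusted p 0.008). Itgam, an integrin of myeloid cells, rose by 1.01 (limma-trend, adjusted p 4.34e-05), and Lyz2, lysozyme, had means of 1683.9 CPM before and 1933.3 CPM after etoposide and was not among the markers called higher. The part of these shifts in the fall of the members was not tested.

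**Figure D2:**
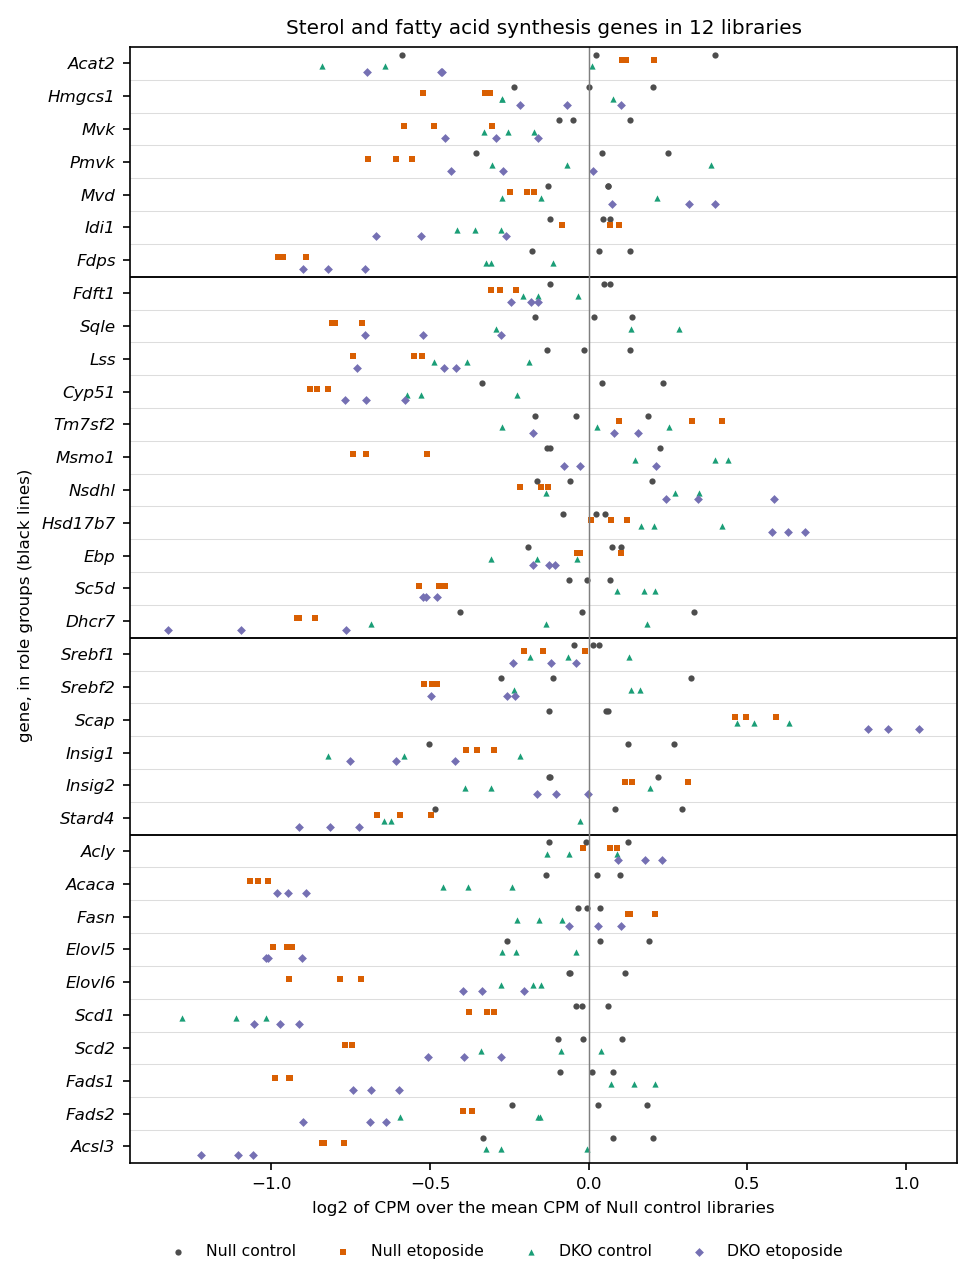
Log2 of each library's CPM over the mean of the Null control libraries, for each gene (rows, in role groups) and each of the 12 libraries (points, by group). Null etoposide points lie left of the Null control points for Acaca, Fads1, Elovl5 and Fdps and right of them for Scap.

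Among the fatty acid genes, Acaca, acetyl-CoA carboxylase 1, which makes malonyl-CoA, was at 109, 121 and 128 CPM in Null control libraries and at 56.8, 59.1 and 57.8 CPM after etoposide. It fell by 1.04 on the log2 scale (SE 0.0779, adjusted p 6.04e-07 by limma-trend), and every treated library was below every control library. Fads1 was at 302, 316 and 282 CPM before and 156, 156 and 151 CPM after etoposide, a difference of -0.96 (SE 0.0702, limma-trend, adjusted p 5.01e-07). Elovl5, an elongase of polyunsaturated fatty acids, was at 95.4, 117 and 130.1 CPM before and 59.0, 57.2 and 59.7 CPM after etoposide, a difference of -0.95 (limma-trend, adjusted p 1.53e-05). In none of these genes did the control and the treated libraries overlap.

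Elovl6, which elongates palmitate to stearate, was at 38.8, 34.4 and 34.3 CPM in Null control libraries and fell to 21.8, 20.8 and 18.6 CPM (-0.81, limma-trend, adjusted p 1.37e-05). Acsl3, an acyl-CoA synthetase of lipid droplets, went from 44.6, 59.3 and 64.7 CPM to 32.9, 31.4 and 31.5 CPM (-0.80, limma-trend, adjusted p 0.000311). Scd2 went from 607, 558 and 528 CPM to 337, 337 and 332 CPM (-0.75, limma-trend, adjusted p 7.19e-05), and Scd1 from 31.7, 32.1 and 34 CPM to 25.1, 26.5 and 26.1 CPM (-0.33, limma-trend, adjusted p 0.00706). Fads2 fell by 0.38 on the log2 scale (adjusted p 0.0378 by limma-trend). Acly (0.05) and Fasn (0.16), which act before and after the step of Acaca, were not called. Fasn was at 421, 409 and 401 CPM before and 447, 475 and 449.5 CPM after etoposide, without overlap (adjusted p 0.0955 by limma-trend).

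In the sterol branch the largest fall was that of Fdps, which makes farnesyl diphosphate, from 82.8, 95.9 and 103 CPM to 48.1, 50.6 and 47.6 CPM (-0.94, SE 0.0922, limma-trend, adjusted p 6.04e-06). Dhcr7, the last enzyme of one route to cholesterol, went from 18.5, 14.5 and 11.1 CPM to 8.09, 7.80 and 7.78 CPM (-0.86, SE 0.225, limma-trend, adjusted p 0.00879). Cyp51, the lanosterol demethylase, went from 29.0, 37.7 and 43.1 CPM to 20.2, 20.7 and 19.9 CPM (-0.83, limma-trend, adjusted p 0.000346). Control libraries of Dhcr7 and Cyp51 were far apart, but in both genes every control library was above every treated one. Sqle, squalene epoxidase, fell from 81.2, 74.7 and 65.6 CPM to 45.0, 42.1 and 42.4 CPM (-0.77, limma-trend, adjusted p 0.00103). Msmo1 (-0.64) and Sc5d (-0.48), which act on the methyl groups and the ring of the sterol, Lss (-0.60), lanosterol synthase, and Fdft1 (-0.27), squalene synthase, also fell. Of the mevalonate steps the kinases Pmvk (-0.59) and Mvk (-0.45) and the HMG-CoA synthase Hmgcs1 (-0.38) fell together with Fdps.

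Acat2, Mvd and Idi1 of the mevalonate steps and Tm7sf2, Nsdhl, Hsd17b7 and Ebp of the sterol steps were not called in Null cells, with log2 differences from -0.20 to 0.29. Ebp, the sterol isomerase, was at 25.8, 31 and 31.6 CPM before and 28.9, 31.6 and 28.7 CPM after etoposide. Genes called and not called were mixed along the route.

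Among the regulators Scap rose, from 90.9, 91.3 and 80.1 CPM to 120.5, 132 and 123 CPM in Null cells (0.52, SE 0.0778, limma-trend, adjusted p 0.000197). Srebf2 went the other way, from 113, 83.4 and 74.5 CPM to 64.1, 64.8 and 63.0 CPM (-0.47, limma-trend, adjusted p 0.0213). Srebf1, at 67.2, 71.0 and 70.1 CPM before and 60.3, 68.9 and 62.9 CPM after etoposide, was not called (-0.12, limma-trend, adjusted p 0.329). Insig1 (-0.31) and Insig2 (0.20) were not called either, and Insig1 control libraries were at 11.7, 18.1 and 20.0 CPM, on both sides of the treated ones. Stard4, a carrier of sterol between membranes, fell by 0.55 (limma-trend, adjusted p 0.0413).

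With single libraries left out, 16 to 22 genes were called in this comparison, and 6 of the falls lost their call in some of those fits. These were Hmgcs1 (-0.37 and -0.27 without Null control replicates 2 and 3, -0.41, -0.42 and -0.31 without Null etoposide replicates 1, 2 and 3, -0.38 without DKO etoposide replicate 1), Pmvk (-0.56 and -0.46 without Null control replicates 2 and 3, -0.60, -0.63 and -0.56 without Null etoposide replicates 1, 2 and 3), Fdft1 (-0.23 and -0.24 without Null control replicates 1 and 2, -0.26 and -0.25 without Null etoposide replicates 1 and 3), Srebf2 (-0.30 when Null control replicate 1 was left out, and -0.48, -0.48 and -0.46 when Null etoposide replicates 1, 2 and 3 were), Stard4 (-0.49 and -0.39 without Null control replicates 2 and 3, -0.55, -0.59 and -0.51 without Null etoposide replicates 1, 2 and 3, -0.55 without DKO etoposide replicate 1 or 3) and Fads2 (-0.28 and -0.36 without Null control replicates 1 and 2, -0.37, -0.39 and -0.37 without Null etoposide replicates 1, 2 and 3, -0.38 without DKO etoposide replicate 1).

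Control libraries of the same line differed more than treated ones. The SD of log2 CPM among replicates had a median over the 34 genes of 0.16 for either control group, of 0.05 for treated Null cells and of 0.10 for treated DKO cells. Over all genes tested these medians were 0.21 for Null control, 0.24 for DKO control, 0.09 for treated Null and 0.15 for treated DKO cells. Null control replicate 1, the library with the lowest total, had the lowest Acat2, Insig1, Stard4, Cyp51 and Acsl3 of its group and the highest Srebf2, Dhcr7 and Fads2. In DKO control cells replicate 1 had the highest Acat2, Insig1, Stard4, Cyp51 and Acsl3 and the lowest Srebf2, Dhcr7 and Fads2. The part of depth and of the 2 RNA extraction kits named in the labels in this pattern was not tested, and which library was made with which kit is not given in the sources used here.

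In DKO cells fewer genes of the pathway were called. Of the 34 genes 9 fell (26.5%) and 2 rose (5.88%), with a median of -0.12, against 19.1% and 20.2% of all genes tested with a median of 0.03. The 9 were Fdps, Sqle, Sc5d, Dhcr7, Acaca, Elovl5, Fads1, Fads2 and Acsl3, each of which also fell in Null cells. The comparisons in Null and DKO cells have no library in common. However, they use the same estimate of spread for each gene, so their calls are not independent. The share that fell was near that of all genes. The 34 genes together took 2597 to 2692 CPM in DKO control libraries and 2268 to 2343 CPM after etoposide.

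Acsl3 had the largest fall in DKO cells, from 56.0, 46.4 and 44.9 CPM to 24.1, 27.0 and 26.1 CPM (-0.93, SE 0.127, limma-trend, adjusted p 9.28e-05). Dhcr7 went from 9.13, 13.4 and 16.7 CPM to 6.87, 5.86 and 8.65 CPM (-0.84, limma-trend, adjusted p 0.00989). Fads1 went from 315, 347 and 331 CPM to 187, 179 and 198 CPM (-0.82, limma-trend, adjusted p 1.59e-06), and Elovl5 from 111, 97.4 and 94.5 CPM to 56.6, 61.0 and 56.4 CPM (-0.80, limma-trend, adjusted p 6.12e-05). In these 4 genes no treated library reached a control library.

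Sc5d (-0.66), Acaca (-0.58), Fdps (-0.56), Sqle (-0.54) and Fads2 (-0.44) followed. For Sqle the groups overlapped, with 60.3, 80.9 and 89.9 CPM in control and 51.4, 45.3 and 60.9 CPM in treated libraries. Scap rose again, from 125, 135.5 and 121 CPM to 180.1, 168 and 161 CPM (0.42, limma-trend, adjusted p 0.00103). Hsd17b7, a sterol 3-ketoreductase, rose in DKO cells, from 17.4, 20.8 and 17.9 CPM to 24.9, 23.2 and 24.0 CPM (0.36, limma-trend, adjusted p 0.00480), while in Null cells its difference was 0.06.

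The 12 genes called lower in Null but not in DKO cells were Hmgcs1, Mvk, Pmvk, Fdft1, Lss, Cyp51, Msmo1, Srebf2, Stard4, Elovl6, Scd1 and Scd2. Whether their responses differed is the question of the interaction given below. Without DKO control replicate 1, 17 genes were called in DKO cells, 5 higher and 12 lower, and with library size alone as the scale 14 were called, 5 higher and 9 lower. With DESeq2 size factors 13 were called, 4 higher and 9 lower. The call of Sqle was lost without DKO etoposide replicate 2 (-0.43) and that of Fads2 without DKO control replicate 2 (-0.37) or 3 (-0.37) or DKO etoposide replicate 2 (-0.35).

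**Figure D3:**
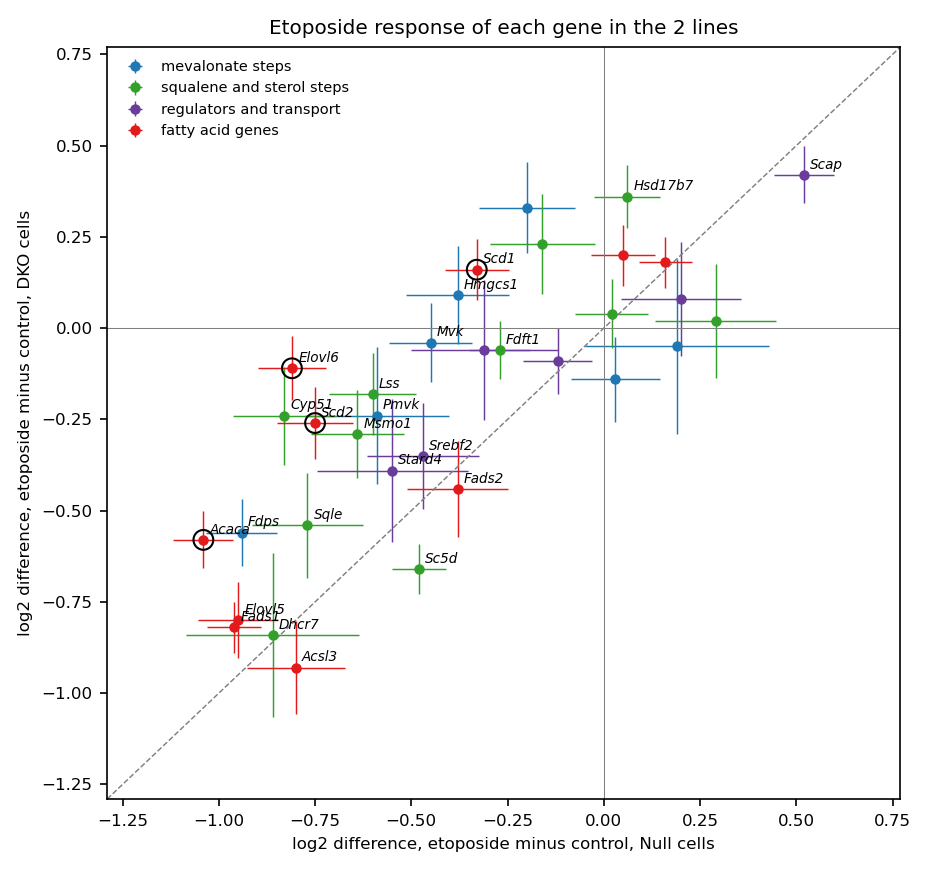
Log2 difference between etoposide and control cells for each gene in Null cells (horizontal) and in DKO cells (vertical), with standard errors; named genes were called in at least 1 line, circles mark the 4 genes called in the interaction and the dashed line is equality. Acaca lies at -1.04 and -0.58, Scd1 at -0.33 and 0.16, and Scap at 0.52 and 0.42.

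The interaction term subtracts the log2 response in the Null line from that in the DKO line. It called 4 of the 34 genes, all with a higher value in DKO cells (11.8%) and none with a lower one (limma-trend, also 0 lower at an unadjusted p under 0.05 and 0 lower with edgeR or DESeq2). Of all genes tested 3.07% were called higher and 6.39% lower. All 4 were fatty acid genes, namely Elovl6, Scd1, Scd2 and Acaca. The median over the 34 genes was 0.19, with 26 values above 0 whether or not called, against a median of -0.01 over all genes tested.

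Elovl6 had the largest interaction, 0.70 (SE 0.124, limma-trend, adjusted p 0.00305). In DKO cells it was at 29.6, 31.7 and 32.3 CPM before and 27.2, 28.4 and 31.1 CPM after etoposide, with overlapping groups and no call (-0.11), next to Null means of 35.8 ± 2.56 CPM before and 20.4 ± 1.67 CPM after the drug (SD, n = 3). Scd1 was at 16.1, 15.1 and 13.4 CPM before and 16.6, 17.3 and 15.7 CPM after etoposide in DKO cells (0.16, not called), and its interaction was 0.49 (SE 0.117, limma-trend, adjusted p 0.0199). Scd2 was at 446.5, 531 and 580.0 CPM before and 430, 397 and 466 CPM after etoposide in DKO cells (-0.26, not called), and its interaction was 0.49 (SE 0.140, limma-trend, adjusted p 0.0492). Acaca fell in both lines but to a smaller extent in DKO cells, from 101, 91.4 and 86.6 CPM to 61.8, 64.2 and 60.3 CPM, with an interaction of 0.46 (SE 0.110, limma-trend, adjusted p 0.0197). The DKO control libraries of Acaca, Scd1 and Elovl6 were all below the Null control libraries, and after etoposide the Acaca levels of the 2 lines were 57.9 ± 1.15 and 62.1 ± 1.96 CPM (SD, n = 3).

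Of the sterol branch the highest interaction values that did not pass were those of Cyp51 (0.59, adjusted p 0.0808), Mvd (0.53, adjusted p 0.0886) and Hmgcs1 (0.47, adjusted p 0.169), each by limma-trend. Values near 0 were those of Dhcr7 (0.02, SE 0.318), Ebp (0.02), Fasn (0.02) and Srebf1 (0.03). Elovl6 kept its call in all fits with 1 library left out. The call of Acaca was lost without Null control replicate 2 (0.44), DKO control replicate 2 (0.45) or Null etoposide replicate 1 (0.44) or 3 (0.46), that of Scd1 without treated Null replicate 1 (0.47) or 3 (0.49), or DKO etoposide replicate 1 (0.48), and that of Scd2 without Null control replicate 1 (0.43) or 2 (0.49), DKO control replicate 1 (0.38) or 2 (0.51), any Null etoposide replicate (0.49, 0.49 and 0.48), or treated DKO replicate 1 (0.49) or 3 (0.43). The number called ran from 1 without Null etoposide replicate 1 or 3 to 7 without DKO control replicate 1, and was 2 without Null control replicate 2, DKO control replicate 2 or DKO etoposide replicate 1.

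**Figure D4:**
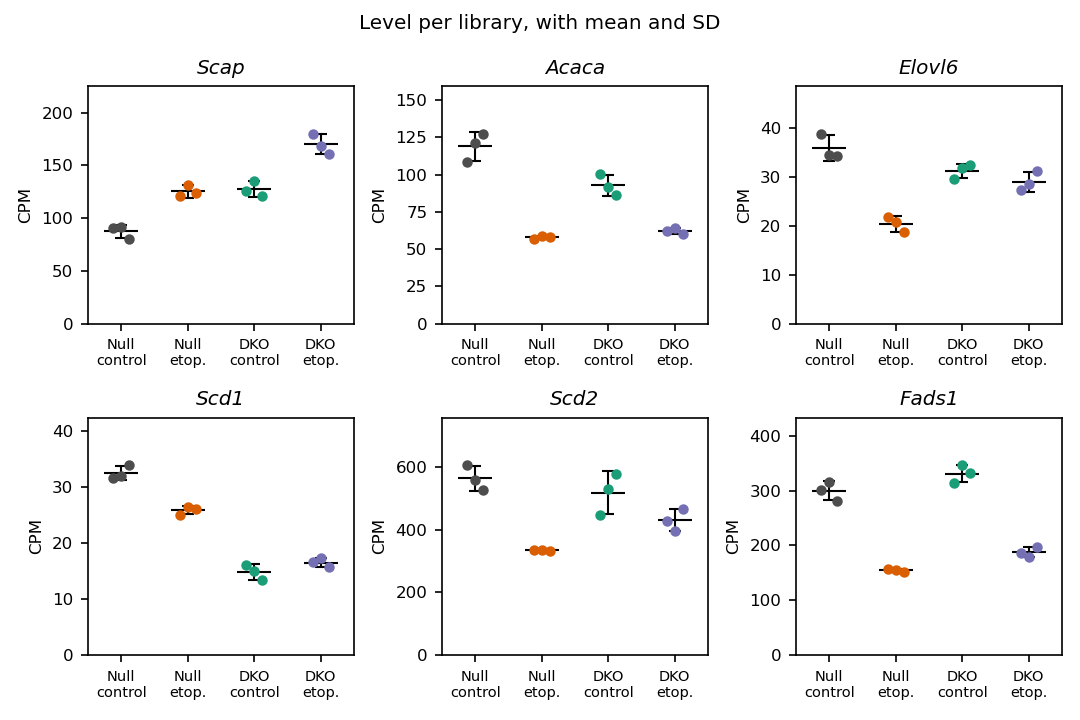
CPM in each library for the 4 genes of the interaction and for Scap and Fads1 (points), with the mean and SD of each group of 3 (bars); axes start at 0. Scd1 lies between 13.4 and 17.3 CPM in the 6 DKO libraries and between 25.1 and 34 CPM in the 6 Null libraries.

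The lines were also compared without the drug, where the share of these genes called lower was near that of all genes. Of the 34 genes 4 were lower in DKO cells (11.8%) and 1 was higher (2.94%), against 8.39% and 10.9% of all genes tested, with a median of -0.16 against 0.00. Scd1 was at 16.1, 15.1 and 13.4 CPM in DKO and 31.7, 32.1 and 34 CPM in Null control libraries, a difference of -1.14 (SE 0.0831, limma-trend, adjusted p 6.94e-07), which was the largest difference of any of the 34 genes in this comparison. Scap was higher in DKO control cells by 0.54 (limma-trend, adjusted p 0.000246), with 121 CPM in the lowest DKO and 91.3 CPM in the highest Null control library. Acaca was lower by a difference of -0.36 (limma-trend, adjusted p 0.00557), Cyp51 by one of -0.42 (adjusted p 0.0458) and Lss by one of -0.35 (adjusted p 0.0495).

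Values of Cyp51 overlapped between the lines, with 24.6 to 31.3 CPM in DKO and 29.0 to 43.1 CPM in Null control libraries. The calls of Cyp51 and Lss were lost in most fits with 1 library left out: without Null control replicate 2 (-0.39 and -0.35) or 3 (-0.29 and -0.28), DKO control replicate 2 (-0.35 and -0.33) or 3 (-0.38 and -0.28), any Null etoposide replicate, or DKO etoposide replicate 1 (-0.42 and -0.35), and for Cyp51 also without DKO etoposide replicate 3 (-0.42). Between 3 and 12 genes were called with single libraries left out, 12 of them without Null control replicate 1 or DKO control replicate 1, and 3 without Null control replicate 3, DKO control replicate 2 or 3, any Null etoposide replicate, or DKO etoposide replicate 1.

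After etoposide 8 of the 34 genes were higher in DKO than in Null cells (23.5%) and 3 were lower (8.82%), with a median of 0.09. Of all genes tested 15.9% were higher and 17.8% lower, with a median of -0.01. Of the squalene and sterol steps 3 of 11 were called, all higher. Msmo1, a methylsterol monooxygenase, was at 66.1, 63.8 and 77.9 CPM in DKO and 47.3, 40.2 and 41.4 CPM in Null libraries (0.69, SE 0.121, limma-trend, adjusted p 0.000779). Hsd17b7 was at 24.9, 23.2 and 24.0 CPM in DKO and 16.9, 16.3 and 15.6 CPM in Null libraries (0.56, SE 0.0860, limma-trend, adjusted p 0.000267). Nsdhl, a sterol dehydrogenase that acts in one complex with these enzymes, was at 28.3, 26.4 and 33.4 CPM in DKO and 20.1, 20.4 and 19.2 CPM in Null libraries (0.55, limma-trend, adjusted p 0.00742). No DKO library of these genes was as low as a Null library, while Sc5d (-0.02), Ebp (-0.14), Dhcr7 (-0.16) and Tm7sf2 (-0.26) were not called.

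Mvd, mevalonate diphosphate decarboxylase, was at 27.2, 28.8 and 23.0 CPM in DKO and 18.4, 19.4 and 19.1 CPM in Null etoposide libraries (0.47, limma-trend, adjusted p 0.0121). Elovl6 (0.50), Scap (0.44), Scd2 (0.36) and Fads1 (0.28) were the other genes called higher. The 3 lower ones were Acat2 (-0.68, adjusted p 0.0453), a cytosolic thiolase, Scd1 (-0.65, adjusted p 6.30e-05) and Idi1 (-0.51, adjusted p 0.00446), isopentenyl diphosphate isomerase, each by limma-trend. Idi1 was at 6.05, 8.05 and 6.68 CPM in DKO and 10.3, 10.1 and 9.09 CPM in Null etoposide libraries, without overlap. The paralogs Scd1 and Scd2 thus differed in opposite directions between the lines after etoposide, and counts of such paralogs are uncertain where read pairs match both genes.

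The call of Scd2 was lost without DKO etoposide replicate 3 (0.30), and that of Acat2 in the fits without Null control replicate 2 (-0.68), DKO control replicate 2 (-0.68), any Null etoposide replicate (-0.70, -0.65 and -0.69), or any DKO etoposide replicate (-0.72, -0.71 and -0.60). With the libraries of these 2 groups alone 18 genes were called, 11 higher and 7 lower.

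**Figure D5:**
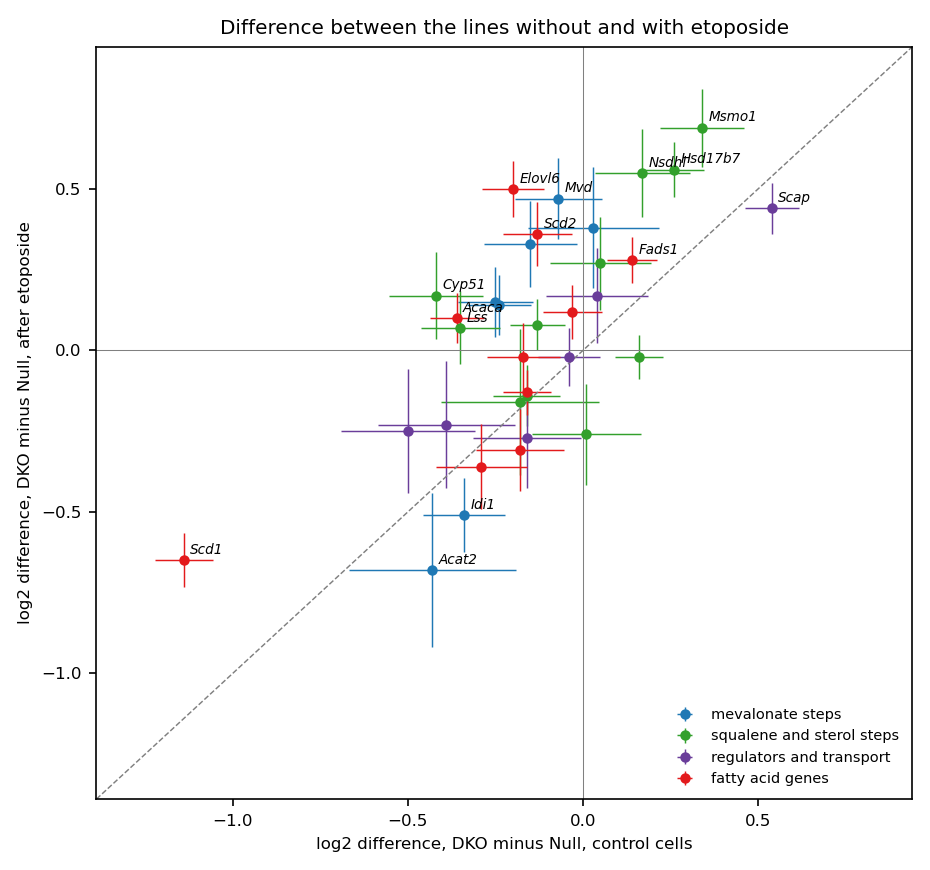
Log2 difference between DKO and Null cells for each gene in control cells (horizontal) and after etoposide (vertical), with standard errors; named genes were called in at least 1 of the 2 comparisons and the dashed line is equality. Scd1 lies lowest in control cells at -1.14 and Msmo1 highest after etoposide at 0.69.

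Other genes of the pathway were taken from lists written by role. Of 18 further genes of sterol and isoprenoid metabolism, all tested, 3 fell in Null cells with etoposide (median -0.06), and 2 fell and 5 rose in DKO cells (median 0.01), beside 18.7% of all genes that fell in Null cells and 19.1% that fell and 20.2% that rose in DKO cells. In DKO cells Lbr, a protein of the nuclear envelope with sterol C14-reductase activity, went from 144 ± 30.1 to 48.3 ± 4.64 CPM (SD, n = 3, -1.56, limma-trend, adjusted p 4.43e-06), with an interaction of -0.94 (adjusted p 0.0143). Tm7sf2, which has the same activity, was not called in any comparison. Cyb5a, the cytochrome b5 that passes electrons to desaturases and sterol oxidases, was higher in DKO cells by 0.83 in control cells and by 1.10 after etoposide (limma-trend, adjusted p 3.13e-06 and 1.44e-07). Por, the reductase that supplies electrons to cytochrome P450 enzymes and squalene epoxidase, rose in DKO cells from 112.9 ± 29.1 to 172.5 ± 22.6 CPM (SD, n = 3, 0.64, limma-trend, adjusted p 0.0256). Between the lines 3 of these genes were higher and 1 lower in DKO control cells, and 6 higher and 1 lower after etoposide, beside 10.9% and 8.39% of all genes in control cells and 15.9% and 17.8% after etoposide.

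Of 20 further fatty acid genes 19 were tested. With etoposide 4 rose and 5 fell in Null cells, and 5 rose and 4 fell in DKO cells, beside 20.9% of all genes that rose and 18.7% that fell in Null cells, and 20.2% and 19.1% in DKO cells. Lpin1, a phosphatidate phosphatase and coactivator, rose in both lines, with means of 8.61 ± 0.543 CPM before and 46.7 ± 0.930 CPM after the drug for Null, and 4.69 ± 0.977 CPM before and 21.2 ± 0.949 CPM after it for DKO (SD, n = 3, 2.44 and 2.18, limma-trend, adjusted p 2.16e-08 and 2.92e-08). Mid1ip1, which promotes the activity of acetyl-CoA carboxylase, had the largest fall in Null cells, from 45.6 ± 6.18 to 24.5 ± 0.626 CPM (SD, n = 3, -0.89, limma-trend, adjusted p 6.10e-05). Me1, malic enzyme, a source of NADPH for fatty acid synthesis, averaged 4.78 ± 1.11 CPM among Null and 25.2 ± 0.815 CPM among DKO controls (SD, n = 3, 2.41, limma-trend, adjusted p 7.16e-08). Elovl3, an elongase, was near the lower limit of detection, at 0.895 ± 0.230 CPM before and 0.148 ± 0.104 CPM after etoposide in DKO cells (SD, n = 3, -2.34, limma-trend, adjusted p 0.000716). The etoposide response of Me1 was smaller in DKO cells (interaction -0.83, limma-trend, adjusted p 0.0168), and of the tested genes 2 had a higher and 1 a lower interaction, beside 3.07% and 6.39% of all genes. Slc25a1, the mitochondrial citrate carrier, had an interaction of 0.57 (limma-trend, adjusted p 0.0135), with 35.1 ± 2.29 and 35.9 ± 1.72 CPM in Null and 30.3 ± 3.30 and 45.8 ± 2.38 CPM in DKO cells before and after etoposide (SD, n = 3).

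A list of 8 genes of the liver X receptors, which sense oxysterols, and their targets had 7 tested genes. Of these 3 rose and 2 fell in each line with etoposide, where of all genes 20.9% rose and 18.7% fell in Null cells and 20.2% rose and 19.1% fell in DKO cells. Nr1h3, which encodes LXR-alpha, rose with means of 3.43 ± 0.859 CPM before and 9.17 ± 0.60 CPM after the drug for Null, and 4.42 ± 1.22 CPM before and 9.75 ± 1.79 CPM after it for DKO (SD, n = 3, 1.43 and 1.15, limma-trend, adjusted p 0.000243 and 0.00122). Mylip, a ubiquitin ligase for lipoprotein receptors, fell in both (-0.66 and -0.96). Pltp, a phospholipid transfer protein, was higher in DKO cells by 1.27 in control cells and 1.64 after etoposide (limma-trend, adjusted p 0.000147 and 1.03e-05). Abcg1, a sterol exporter, was lower in DKO control cells by a difference of -0.91 (limma-trend, adjusted p 0.00199).

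Some of these genes share exon bases with others. At the mean density of Ctsb, which lies on the opposite strand and is abundant in macrophages, the 774 bases it shares with Fdft1 would hold 556% of the counts of Fdft1, so values of Fdft1 are uncertain. Vps51 on the same strand could account for 64.9% of the counts of Tm7sf2, Gm43738 on the same strand for 50.7% of those of Fdps, and 5830462I19Rik on the opposite strand for 9.16% of those of Scap. For Cyp51, Lss, Scd2, Acsl3, Srebf1 and Elovl6 the largest share was at most 3.17%. These shares assume that reads in shared bases were counted for the listed gene. If such reads were left out, its values would be too low instead. Whether the counting used strand, and how it treated such reads, is not given in the sources used here.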

How the data were processed

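RNA was measured in 12 libraries. According to the study's methods, the authors made stranded, ribosome-depleted total RNA libraries, sequenced them as pairs, aligned with HISAT2 and counted uniquely mapped pairs per gene with HTSeq on GENCODE, whereas the submitters' processing notes name featureCounts and the build mm10. The table deposited by the authors holds unnormalized read counts for each gene. Symbols, coordinates and exon lengths came from GENCODE M21 (GRCm38), and promoters from RefSeq.

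Here filterByExpr (edgeR 4.0.16) kept 18066 of 32688 genes, which were scaled by TMM and tested as log2 CPM with a prior count of 3 by robust limma-trend (limma 3.58.1, R 4.3.3) in 1 model of 4 group means. P-values are two-sided, adjusted by Benjamini-Hochberg over all genes tested, and called under 0.05. The script was tested on simulated data. Members, roles, lists and motifs were chosen with earlier results of these data known. All members were named, with log2 differences for those called and p for some of them. From the other lists the called genes with the largest rise or fall were named, except for an item that is not reported here. The paper calls the treated samples independent, but the labels do not say whether replicates came from separate cultures. The p-values therefore measure the spread between these libraries, pooled over the 4 groups, also where a comparison uses only some of the groups. Alternatives included edgeR, DESeq2 1.42.0, other scalings, filters and prior counts, and leaving out libraries. Strand use, annotation release and versions of the authors' tools are not given in the sources used here. At these depths members held 171 to 29571 counts per library.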

Additional observations from a re-analysis of the deposited data

Results flagged for a closer look

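The etoposide response of 4 of the 34 genes differed between DKO and Null cells by the interaction term (11.8%, all higher), beside 3.07% of all genes tested that were called higher and 6.39% that were called lower. The log2 difference of the responses was 0.70 for Elovl6 (limma-trend, adjusted p 0.00305), 0.49 for Scd1 (adjusted p 0.0199), 0.49 for Scd2 (adjusted p 0.0492) and 0.46 for Acaca (adjusted p 0.0197). Elovl6 and Scd2 fell in Null cells and were not called in DKO cells, Scd1 fell in Null cells from a level that the DKO libraries did not reach with or without the drug, and Acaca fell in both lines.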

How the results depend on the processing

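Of 53 calls of single genes, 37 were kept under every alternative run other than a minimum fold and 16 were lost under at least 1 of these, and none reversed. Requiring an absolute log2 difference of at least 1 left 1 of 22 calls in Null cells (Acaca), 0 of 11 in DKO cells, 1 of 5 between control lines (Scd1), 0 of 11 between the lines after etoposide and 0 of 4 in the interaction. Between control lines, where 5 genes were called, 10 were called with the DESeq2 Wald test, 9 with library size alone, 3 without the filter on low counts and 2 with these groups alone. After etoposide 18 were called with these 2 groups alone instead of 11. In the interaction 7 were called with the DESeq2 Wald test and 2 without the filter, instead of 4. The cause was not tested.

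With single libraries left out, the counts ran from 16 to 22 in Null cells, 9 to 17 in DKO cells, 3 to 12 between control lines, 9 to 14 after etoposide and 1 to 7 in the interaction. Without Null control replicate 1 and DKO control replicate 3, the libraries of lowest depth, they were 21, 12, 5, 13 and 5, an alternative chosen after seeing the data.

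With the replicate number as a block, 18 genes were called in Null cells, 11 in DKO cells, 3 between control lines, 10 after etoposide and 2 in the interaction. Same-numbered libraries did not deviate together (correlations from -0.54 to 0.39 over 18 pairs, 1 over 0.1), and 0 of 12 libraries correlated best with their own number. With few libraries in each group, this check cannot show whether same-numbered libraries were made together.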
